A study of Mus musculus with 7 samples.

Results

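The cytosolic ribosomal protein genes encode the protein part of the ribosome that translates nuclear-encoded mRNA. They were taken by symbol: Rpl or Rps followed by a number with an optional final a, x, y or l, together with Rplp0, Rplp1, Rplp2 and Rpsa, and without Rps6k kinases and pseudogene symbols ending in -ps. The rule gave 80 of the 22447 genes listed, 49 of the large and 31 of the small subunit. It left out 8 genes whose symbols have another form. They are genes of the same family or fused to it, among them Rps3a1 and Fau, and the ribosomal scaffold gene Gnb2l1. Some of these are described separately. No measured value entered the rule.

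RNA was sequenced from 7 mouse lung libraries. There were 3 from lung tumors of EZH2-overexpressing mice, 2 from normal lung of the same genotype and 2 from wild-type normal lung. EZH2 is the histone methyltransferase of Polycomb repressive complex 2. The tumors and the OE normal lungs therefore share EZH2 overexpression, and the wild-type lungs lack it. How EZH2 was overexpressed, including the promoter and any Cre, and the strain are not given in the labels, and neither are ages. The growth protocol describes minced tumor nodules kept in dishes, and the labels do not say whether the tumor RNA came from such cultures or from tissue. No label says that libraries of a group came from separate animals. The sex-linked genes Eif2s3y and Xist, given below, differed between the 2 OE normal lungs and between tumor 1 and the other tumors. Those libraries therefore came from animals of different sex. For tumors 2 and 3, and for the wild-type lungs, separate animals are not shown. The p-values measure the spread between these libraries, which may be technical in part.

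A mammalian ribosome holds a single copy of nearly every ribosomal protein, and cells make these proteins in matched amounts, surplus protein being degraded. Many of the mRNAs begin with a C followed by a run of pyrimidines, the 5' terminal oligopyrimidine (TOP) tract, through which LARP1 and mTORC1 control their translation. Ribosome production is tied to growth, with MYC and RNA polymerase I as classical regulators, and free RPL5 and RPL11 bind MDM2 when assembly fails.

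Of the 80 members, 60 had an entry in the promoter table of RefSeq on build GRCm38.p6. Their annotated starts were searched for the tract, on the transcribed strand, as a C followed by at least 6 C or T bases and beginning within 10 bases of the start. It was present at 29 of 72 member starts (40.3%), against 12.2% of 32851 starts of all genes. The windows below run from 60 bases before to 20 bases from the start on, in the direction of transcription, with the tract in capitals. They show Rpl12 and Rps7, which were among the members with the largest tumor differences, Rpl13a and Rps6, which moved oppositely between tumors, Rps24, which barely differed between groups, and the muscle paralog Rpl3l. These genes were picked for display after their values were seen.
Rpl12 (chr2:32961652-32961731, plus strand): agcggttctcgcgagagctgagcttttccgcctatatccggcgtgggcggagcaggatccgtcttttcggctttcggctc
Rps7 (chr12:28635934-28636013, minus strand): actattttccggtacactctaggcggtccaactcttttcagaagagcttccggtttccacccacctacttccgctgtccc
Rpl13a (chr7:45128726-45128805, minus strand): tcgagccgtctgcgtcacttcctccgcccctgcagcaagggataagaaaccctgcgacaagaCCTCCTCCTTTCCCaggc
Rps6 (chr4:86857348-86857427, minus strand): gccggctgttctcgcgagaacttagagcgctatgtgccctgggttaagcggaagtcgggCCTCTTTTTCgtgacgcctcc
Rps24 (chr14:24490618-24490697, plus strand): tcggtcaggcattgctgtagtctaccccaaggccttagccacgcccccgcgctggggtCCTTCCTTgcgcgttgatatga
Rpl3l (chr17:24727766-24727845, plus strand): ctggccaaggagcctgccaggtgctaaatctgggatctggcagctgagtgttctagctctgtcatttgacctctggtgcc
The tract was found in the windows of Rpl13a, Rps6 and Rps24, and no match beginning within 10 bases of the start was found for Rpl12, Rps7 and Rpl3l. The difference between members with and without it was not tested. The median log2 difference of the tumors from OE normal lung was 0.64 for 28 tested members with the tract and 0.51 for 29 without, and 16 and 15 of them were called higher. The letters CCGGAAG, a core bound by ETS factors, lay on either strand of the 300-base window at 36.1% of member starts and at 8.86% of all starts. The letters AAGATGGC, a core bound by YY1, lay at 9.72% and 2.75%. These are matches of letters only.

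All values are FPKM, fragments per kilobase of transcript scaled to the mapped fragments of the library, so that levels of different genes can be compared per length. The ribosomal protein genes were among the most abundant transcripts of every library, taking 61 to 67 of the 200 highest places once small RNA genes were set aside. Summed FPKM of the members was 56313, 63388 and 63874 in tumors 1 to 3, 38694 and 42558 in OE normal lungs 1 and 2, and 36303 and 35729 in wild-type lungs 1 and 2. The groups did not overlap, and the order was tumor, then OE normal lung, then wild-type lung. As a share of all FPKM the members took 11.2%, 13.1% and 13.7% in the tumors, 9.55% and 10.1% in OE normal lung and 7.97% and 7.94% in wild-type lung. Small RNA genes took 5.80% to 16.7% of the same sums, and without them the member shares were 13.3% to 15.5%, 10.1% to 11.2% and 9.53% to 9.56%. Large subunit genes summed to 1.26 to 1.39 times small subunit genes in the 7 libraries, and tumor 1 had the highest ratio, with tumors 2 and 3 at the lowest.

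**Figure D1:**
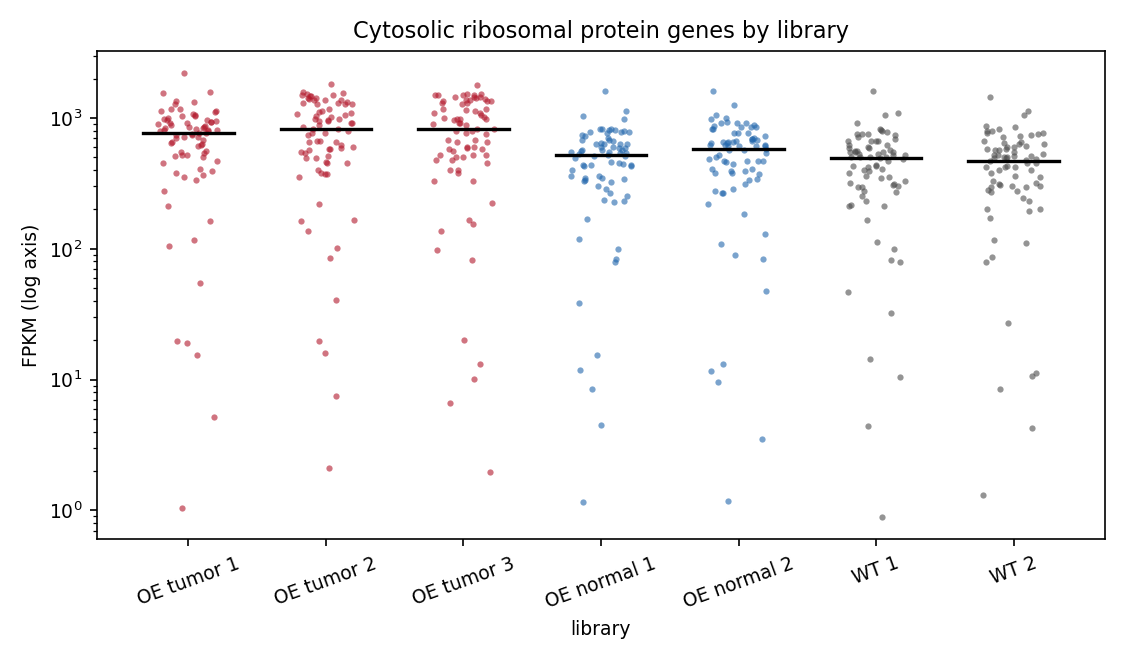
FPKM on a log axis of the 77 members that passed the expression minimum, 1 point per gene, in each of the 7 libraries, with the median of these genes as a black line. The lines of the 3 tumors lie above those of the 4 normal lungs, and a few low genes lie far under the rest in every library.

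Levels differed widely between members. Rplp1, an acidic protein of the ribosomal stalk, had the highest mean over the 7 libraries at 1610 FPKM, followed by Rps12 at 1310, Rpl10 at 1193, Rpl41 at 1160 and Rps18 at 1131. At the other end Rpl10l, a testis paralog, was listed at 0 in every library, Rpl39l had a mean of 0.113 and Rpl3l, a striated muscle paralog, 0.639 FPKM. These 3 did not reach 1 FPKM in 2 libraries and were not tested, leaving 77 members among 14057 genes. Several core genes were also listed low: Rpl26 had a mean of 9.15, Rpl30 14.7, Rpl34 14.8 and Rps27 15.8 FPKM. Ribosomal protein genes have many processed pseudogenes, and 73 of the 80 members had at least 1 annotated pseudogene matching at least 95% of bases over at least 90% of their coding sequence. How reads were shared among such copies is not given in the sources used here, so every absolute level, and the low ones above all, is uncertain. The 7 tested members with means under 100 FPKM had a median of 5 such pseudogenes and the 70 above it also 5, with 55 for Rpl21.

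Ezh2 itself was at 8.48, 23.5 and 22.6 FPKM in the tumors, 10.2 and 11.5 in OE normal lung and 3.72 and 2.58 in wild-type lung, so every EZH2-overexpressing library was above both wild-type lungs. The mouse symbol need not count transcripts of an introduced copy. Tumor 1 also stood apart in other genes. Sftpc, the alveolar type 2 surfactant gene, was at 35944 FPKM there and listed at 0 in tumors 2 and 3. The club cell gene Scgb1a1 was likewise listed at 0 in all 4 normal lungs, so an exact 0 of an abundant gene in these files can be a failed estimate. The Y-linked Eif2s3y was at 30.7 in tumor 1, 27.4 in OE normal 1 and 29.8 in each wild-type lung, and Xist was at 74.2 and 60.6 in tumors 2 and 3 and 63.6 in OE normal 2. The libraries with Xist thus differed in number between the groups, and the part of sex in the member differences was not tested. Over the 14057 genes tested, tumors 2 and 3 correlated at r = 0.970 on the log2(FPKM + 1) scale, and tumor 1 with them at 0.897 and 0.894. Relative depth, estimated from the steps of low values, ran from 0.996 to 1.87, and the absolute depth is unknown. Counts of members called in the tumors are therefore also given without tumor 1 or for tumor 1 alone.

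The tumors were first compared with OE normal lung, which asks what differs between tumor and normal tissue of 1 genotype. Ribosomal protein genes were higher in the tumors as a group. With limma on log2(FPKM + 1), 39 of 77 members passed an adjusted p of 0.05 as higher and 0 as lower, while over all genes 13.1% were called higher and 24.9% lower. The median log2 difference of the members was 0.59, with a range of 0.01 to 1.33, against -0.11 over all genes. In 66 of 77 members every tumor was above both OE normal lungs, compared with 25% of all genes, and in 0 members (35.9% of all genes) was every tumor below. By subunit, 25 of 46 large subunit and 14 of 31 small subunit genes were called, with medians of 0.58 and 0.59.

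Among the largest called differences were those in Rpl7a, Rps7, Rps2, Rpl32, Rpl12, Rpl28 and Rpl18, which are all core ribosomal proteins. Rps2, a protein at the mRNA entry channel of the small subunit, was at 1030, 1130 and 1166 FPKM in the tumors, 512 and 566 in OE normal lung and 491 and 453 in wild-type lung. Rpl7a of the large subunit was at 812, 1086 and 1151, then 451 and 461, then 429 and 432 FPKM. In both genes each tumor was well above each normal lung, and the normal groups lay close together. The log2 difference from OE normal lung was 1.04 (SE 0.15) for Rps2 and 1.14 (SE 0.19) for Rpl7a, with limma adjusted p = 0.00308 and 0.00541.

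Rpl32 of the large subunit showed a stepped pattern. It was at 1320, 1551 and 1529 FPKM in the tumors, 685 and 771 in OE normal lung and 519 and 495 in wild-type lung. All 3 groups were separate, and the tumors were 2.02 times OE normal lung and 2.89 times wild-type lung by the ratio of means. The log2 differences were 1.01 (SE 0.16, limma adjusted p = 0.00459) and 1.53 (SE 0.16, limma adjusted p = 0.0011). Rpl12, a protein near the stalk base, followed the same order, at 1075, 1303 and 1295 FPKM in the tumors, 557 and 663 in OE normal lung and 506 and 480 in wild-type lung. Its log2 differences were 1.00 (SE 0.17) and 1.31 (SE 0.17), with limma adjusted p = 0.00586 and 0.00234.

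Rps7, a small subunit protein mutated in Diamond-Blackfan anemia, was at 564, 959 and 915 FPKM in the tumors, 360 and 408 in OE normal lung and 307 and 304 in wild-type lung. Its groups did not overlap, yet tumor 1 was nearer to the normal lungs than to the other 2 tumors. Against OE normal lung it differed by 1.04 on the log2 scale (SE 0.26, limma adjusted p = 0.0217). With tumor 1 as the only tumor that difference was 0.56, and without tumor 1 it was 1.29. Rpl28 and Rpl18 had the same split, with log2 differences of 0.99 (SE 0.24) and 0.99 (SE 0.26) and limma adjusted p = 0.0211 and 0.0286. The 8 called members with the smallest differences were Rpl27, Rpl5, Rps26, Rps27l, Rpl15, Rpl35a, Rps10 and Rpl6, which ran from 0.49 to 0.60 on the log2 scale.

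The tumors were then compared with wild-type lung, where 56 of 77 members were called higher and 0 lower by limma at an adjusted p of 0.05. Over all genes 15% were higher and 23.2% lower. The members' median log2 difference was 0.72, against -0.06 over all genes, and 70 of 77 members were higher in every tumor than in both wild-type lungs, compared with 28.9% of all genes. For the reverse order the numbers were 0 members and 35% of all genes. Of the large subunit 35 of 46 genes were called, and of the small subunit 21 of 31. The tumors are the same libraries in both comparisons, which are therefore not independent.

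Rpl32, Rps7, Rpl12, Rps18, Rps15a, Rpl3, Rps19 and Rps2 had the largest called differences from wild-type lung. Rpl3, which lies close to the peptidyl transferase center, was at 744, 847 and 799 FPKM in the tumors, 434 and 443 in OE normal lung and 354 and 321 in wild-type lung. The 3 groups were separate, and the tumors lay close together. The log2 difference was 1.24 (SE 0.14, limma adjusted p = 0.00132) against wild-type lung and 0.86 (SE 0.14, limma adjusted p = 0.00476) against OE normal lung. Rps18 of the small subunit head was at 1286, 1813 and 1804, then 788 and 912, then 664 and 648 FPKM, with no overlap between groups. The 8 smallest called differences from wild-type lung, among them those in Rpsa, Rps27l, Rpl37, Rpl4, Rpl19, Rpl14 and Rplp0, ran from 0.47 to 0.62.

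**Figure D2:**
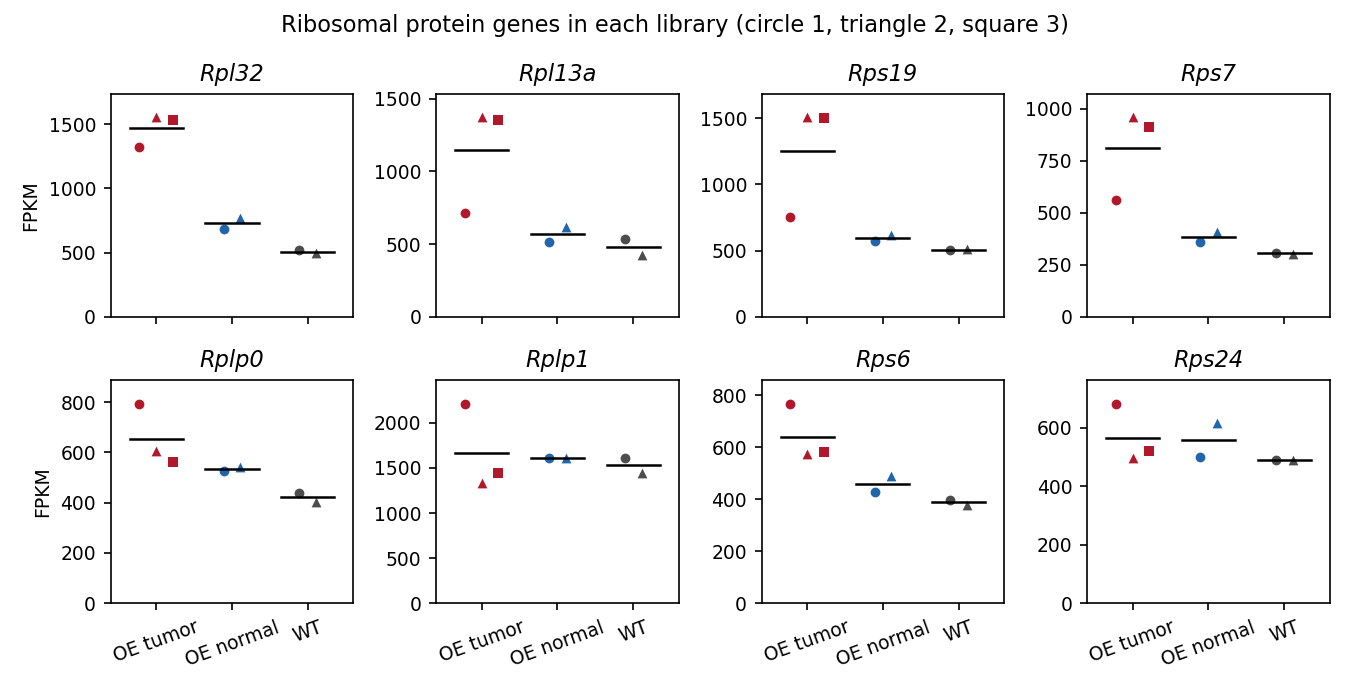
FPKM of 8 members in each library, with tumors in red, OE normal lung in blue and wild-type lung in gray, circles for replicate 1, triangles for 2 and squares for 3, and a bar at each group's mean; the axes start at 0. Rpl32 is higher in all 3 tumors, Rpl13a, Rps19 and Rps7 are higher in tumors 2 and 3 than in tumor 1, and Rplp0, Rplp1, Rps6 and Rps24 are highest in tumor 1.

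The comparison of OE normal with wild-type lung asks what goes with EZH2 overexpression outside tumors. Here 0 of 77 members were called in either direction by limma, as were 0% of all genes. At an unadjusted p under 0.05 there were 2 members, Rpl3 and Rpl32, and 1208 of 14057 genes. The differences were mostly of 1 sign: 73 of 77 members had a positive log2 difference, compared with 53.8% of all genes. Their median was 0.17 against 0.02 over all genes, with a range of -1.67 (Rps27, SE 1.25) to 0.52. Without OE normal 1 the members' median was 0.23. Without OE normal 2, the normal lung with Xist, it was 0.11. In 58 of 77 members both OE normal lungs were above both wild-type lungs, compared with 29.6% of all genes, and the reverse held in 0 members and 23.1% of all genes. The largest positive ones were Rps15a at 0.52 (SE 0.25, limma adjusted p = 0.67) and Rpl32 at 0.52 (SE 0.18, limma adjusted p = 0.464). With 2 libraries against 2 an exact permutation test of a single value cannot go below p = 0.333.

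Taking all 3 groups at once, 51 of 77 members had every tumor above every OE normal lung and every OE normal lung above every wild-type lung, an order seen in 6.47% of all genes. Every tumor was above all 4 normal lungs in 65 members (21.9% of all genes), and below them in 0 members (30%). Among the members that left this order because at least 1 tumor was not above both OE normal lungs were Rpl9, Rpl26, Rpl30, Rplp1, Rps4x, Rps15, Rps24, Rps25, Rps27a and Rpsa. Rps24, a small subunit protein also mutated in Diamond-Blackfan anemia, was at 683, 497 and 520 FPKM in the tumors, 499 and 616 in OE normal lung and 489 and 491 in wild-type lung. Only tumor 1 stood above the normal range, and the log2 difference from OE normal lung was 0.02 (SE 0.20, limma adjusted p = 0.956). Rps27 was erratic, at 5.17, 40.4 and 6.65, then 4.45 and 3.51, then 46.5 and 4.22 FPKM, so that tumor 2 and wild-type lung 1 stood far above the other libraries.

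Because FPKM depends on what else is in a library, the shifts were recomputed on other scales. Median-of-ratios scaling, which sets the typical gene equal between libraries, had factors of 1.02, 0.909 and 0.894 for the tumors, 1.05 and 1.07 for OE normal lung and 1.03 and 1.01 for wild-type lung. Under it the medians of the members and of all genes both rose in the tumor comparisons. Of 77 members 55 were called higher than OE normal lung and 62 higher than wild-type lung. The members' medians were 0.77 and 0.84, against 0.05 and 0.04 over all genes. Among all genes 18.1% and 17.8% were then higher. Leaving the members out of the factors gave medians of 0.77 and 0.84 again. For OE normal against wild-type lung the median fell to 0.11 against -0.03 over all genes. Of 77 members 70 were positive, compared with 43.9% of all genes, and 0 were called.

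The other scales gave the members smaller differences. TPM multiplies each library by a constant factor, and in the tumor comparisons the median over all genes fell together with that of the members. Rescaling to TPM gave 10 members higher than OE normal lung (7.72% of all genes) with a median of 0.36 against -0.33 over all genes, and 50 higher than wild-type lung (11.8% of all genes) with a median of 0.64 against -0.16. With small RNA genes set aside before that rescaling the numbers were 22 and 44 (9.33% and 10.8% of all genes). Quantile normalization, which forces all libraries to 1 distribution, gave 14 members higher than OE normal lung, a share of 18.2% that is below the 24.1% of all genes. Its median was 0.23 for the members and 0.13 for all genes. Against wild-type lung it gave 27 members (35.1%, with 22.8% of all genes) and a median of 0.42 against 0.11. No member was called lower than either normal group on any of these scales, and the median of the members was above that of all genes on each.

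**Figure D3:**
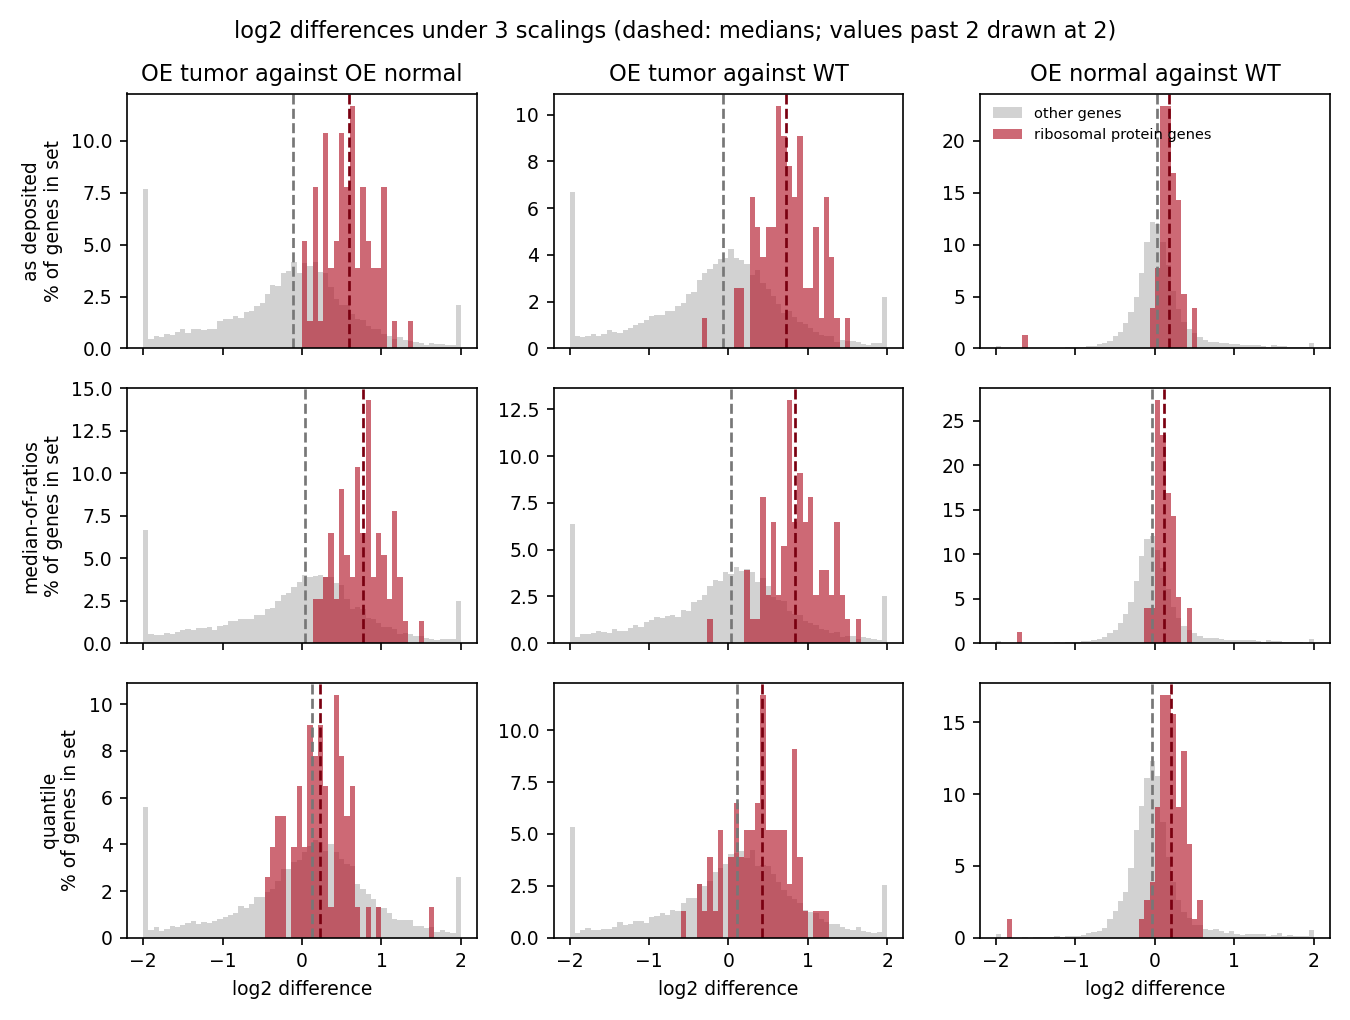
Histograms of log2 differences (percent of the genes in each set) of the 77 tested members in red and the other genes tested in gray, in the 3 comparisons (columns), for FPKM as deposited, median-of-ratios scaling and quantile normalization (rows); dashed lines are medians, and values past 2 are drawn at 2. In both tumor comparisons the members lie to the right of the other genes in the first 2 rows and overlap them most after quantile normalization, where the members' median against OE normal lung was 0.23.

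The tumors did not shift as 1 block. Tumor 1 was above all 4 normal lungs in 75 of 77 members, tumor 2 in 67 and tumor 3 in 68, compared with 37.6%, 35.2% and 33.8% of all genes. Tumors 2 and 3 resembled each other closely, with a median absolute deviation of the members' log2 ratio of 0.046, less than that of the 2 OE normal (0.071) or the 2 wild-type lungs (0.072). Between tumors 1 and 2 it was 0.56. Leaving out the erratic Rps27, tumor 2 ranged from 0.603 times (Rplp1) to 2.00 times (Rps19) the level of tumor 1.

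These differences followed the chromosome that carries the gene. Chromosomes were taken from RefSeq GRCm38.p6 by symbol, since the build of the values is mm9, and no positions were used. Chromosomes were sorted by the median log2 ratio of tumors 2 and 3 to tumor 1 over 6520 other genes with a mean of at least 10 FPKM. Chromosomes 2, 7, 8 and 12 were more than 0.2 higher in both tumors, chromosomes 4, 5, 9, 10, 11, 14, 15 and X more than 0.2 lower, and the remaining 8 met neither rule. On the first group of chromosomes all 21 members with a mean of at least 10 FPKM were higher in tumor 2 than in tumor 1, and all 21 in tumor 3, with median log2 ratios of 0.63 and 0.61. On the second group 34 of 37 members were lower in tumor 2 and 33 in tumor 3, with medians of -0.25 and -0.21. On the 8 remaining chromosomes the medians of the 17 members were 0.35 and 0.35. The members' log2 ratios to tumor 1 thus lay above those of the other genes of their chromosomes, by a median of 0.20 for tumor 2 and 0.24 for tumor 3.

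**Figure D4:**
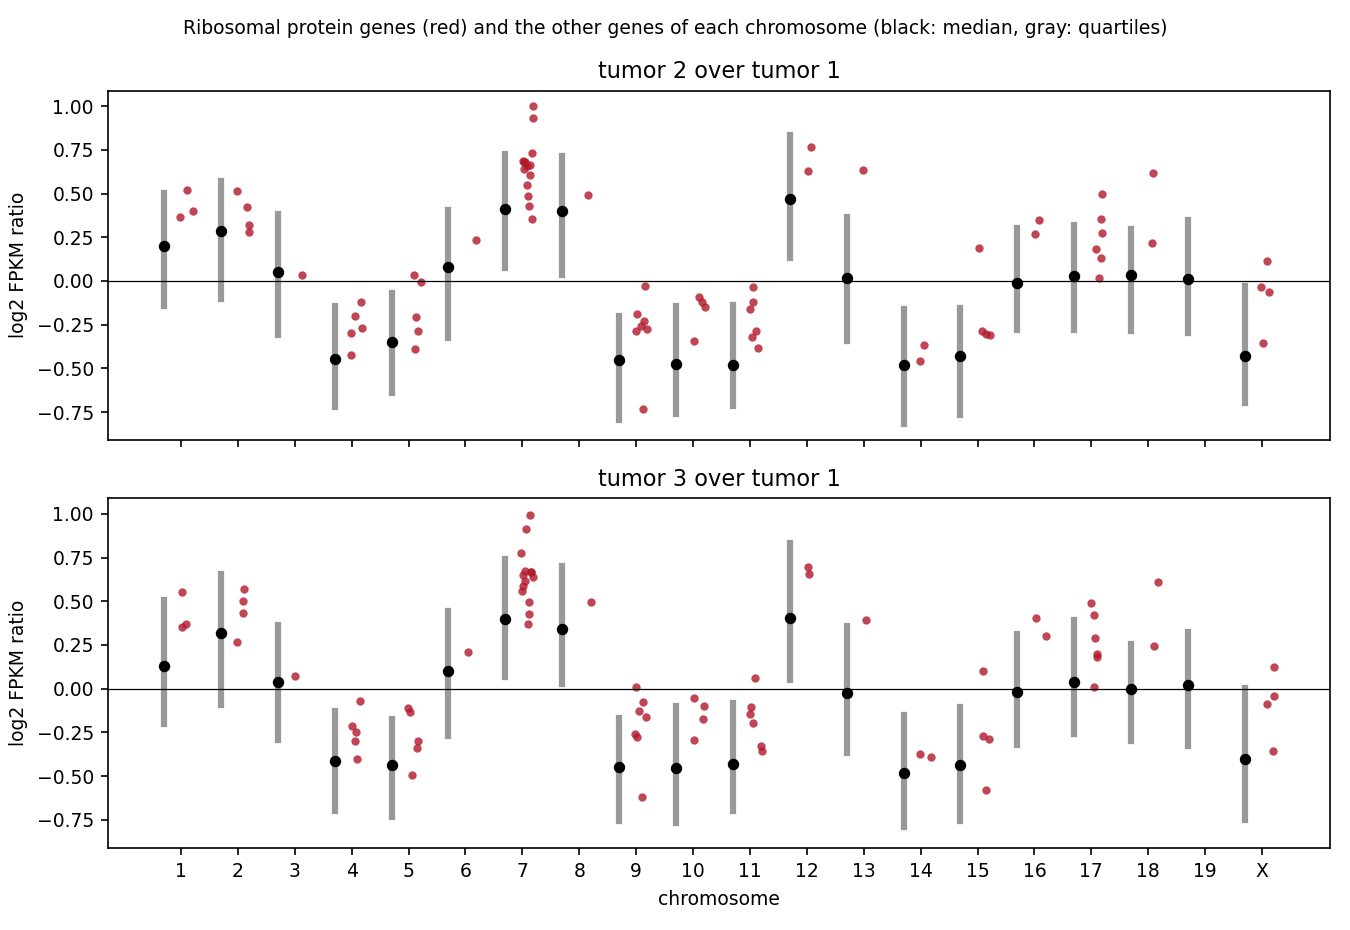
Log2 FPKM ratio of tumor 2 (top) and tumor 3 (bottom) to tumor 1 by chromosome, with members as red points, and the median and quartiles of the other genes as a black point and a gray bar. Members on chromosomes 2, 7, 8 and 12 lie above 0 and most of those on chromosomes 4, 5, 9, 10, 11, 14, 15 and X lie below it; Rps27 is not drawn.

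Chromosome 7 carried the most members, 14, and all were higher in tumors 2 and 3. Rps19, the first gene found mutated in Diamond-Blackfan anemia, was at 753, 1504 and 1498 FPKM in the tumors, 571 and 621 in OE normal lung and 503 and 513 in wild-type lung. Rpl13a, a large subunit protein also known from a translation-silencing complex and, like Rps24 above, picked out after its values were seen, was at 717, 1370 and 1350, then 516 and 619, then 534 and 425 FPKM. For both genes the first tumor lay nearer to the normal lungs than to the other tumors. Rps19 missed the threshold in the first comparison, at 1.00 on the log2 scale (SE 0.33, limma adjusted p = 0.0557), and passed it against wild-type lung (1.23, SE 0.33, limma adjusted p = 0.0293). Without tumor 1 the same values were 1.33 and 1.56, with limma adjusted p = 0.000231 and 0.000137. The tumors in that fit were only tumors 2 and 3, which were nearly alike. The members' median SE against OE normal lung fell from 0.17 to 0.10. The labels do not say whether tumors 2 and 3 came from separate tumors or animals, so these p-values may measure a technical spread.

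On chromosome 4 the order was turned. Rps6, the small subunit protein phosphorylated by S6 kinase, was at 768, 573 and 582 FPKM in the tumors, 429 and 490 in OE normal lung and 398 and 379 in wild-type lung. Tumor 1 was the highest and all 3 tumors were above all normal lungs. Its log2 difference was 0.47 (SE 0.18, limma adjusted p = 0.0879) from OE normal lung and 0.71 (SE 0.18, limma adjusted p = 0.0258) from wild-type lung. Rpl11 and Rpl22 on the same chromosome differed from OE normal lung by 0.41 (SE 0.15, limma adjusted p = 0.0753) and 0.33 (SE 0.13, limma adjusted p = 0.0871). Rpl5, the partner of Rpl11 in the 5S particle, lies on chromosome 5 and was at 364, 372 and 332 FPKM in the tumors, 234 and 267 in OE normal lung and 212 and 195 in wild-type lung. It passed in both comparisons, with 0.51 (SE 0.13, limma adjusted p = 0.0271) and 0.80 (SE 0.13, limma adjusted p = 0.00536).

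The 3 stalk genes, whose proteins recruit elongation factors, showed how far members of a complex could part. Rplp0, on chromosome 5, was at 794, 606 and 564 FPKM in the tumors, 524 and 542 in OE normal lung and 441 and 404 in wild-type lung. Rplp1, on chromosome 9, was at 2213, 1334 and 1439, then 1613 and 1613, then 1613 and 1448 FPKM, so that tumor 1 was the highest library and tumors 2 and 3 the lowest. Rplp2, on chromosome 7, was at 861, 1378 and 1374, then 746 and 819, then 720 and 719 FPKM, with tumor 1 the lowest tumor. Against OE normal lung 0 of the 3 were called, at log2 differences of 0.28 (SE 0.19), 0.01 (SE 0.26) and 0.59 (SE 0.25), limma adjusted p = 0.28, 0.987 and 0.109 and unadjusted p = 0.185, 0.982 and 0.0541. Against wild-type lung Rplp0 was called (0.62, SE 0.19, limma adjusted p = 0.0437).

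The normal lungs had no such pattern. The chromosome medians of the other genes lay between -0.05 and 0.05 for the 2 OE normal lungs against each other and between -0.04 and -0.00 for the 2 wild-type lungs. In tumor 1 against the mean of the normal lungs they lay between -0.05 and 0.14, in tumor 2 between -0.44 and 0.54 and in tumor 3 between -0.45 and 0.49. Across the 75 members with a mean of at least 10 FPKM the log2 ratio of tumor 3 to tumor 1 correlated with the median of the other genes of the chromosome at r = 0.91, given as a description of 2 libraries, and subtracting that median took the SD of the members' ratios from 0.40 to 0.16. For tumor 2 to tumor 1 the same values were r = 0.73 and an SD of 0.52 going to 0.35, and without Rps27 r = 0.91 and an SD of 0.40 going to 0.17. Against the mean of the 4 normal lungs, 74 of 75 members were higher in tumor 1, with a median log2 ratio of 0.54, and 72 and 70 in tumors 2 and 3, with medians of 0.74 and 0.72. DNA copy number was not measured, and its part in these differences was not tested.

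**Figure D5:**
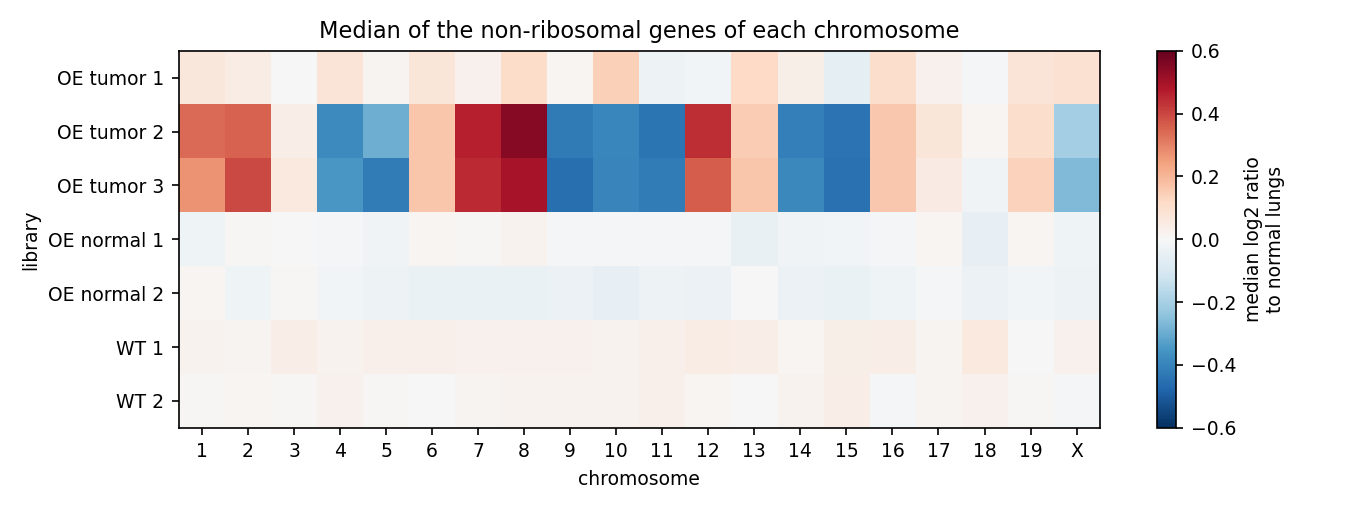
Median log2 ratio of the genes other than members on each chromosome, in each tumor against the mean of the 4 normal lungs and in each normal lung against the mean of the other 3 (red higher, blue lower). Tumors 2 and 3 have the same chromosomes high and low, between -0.45 and 0.54, while tumor 1 and the normal lungs stay within -0.05 and 0.14.

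Against OE normal lung 14 of 22 tested members were called on chromosomes 2, 7, 8 and 12, beside 18.5% of the other genes there. On the 8 chromosomes that met neither rule 15 of 17 were called, beside 15.1%, and on the chromosomes lower in tumors 2 and 3 there were 10 of 38, beside 7.86%. The share of members called was thus highest on the chromosomes that met neither rule and lowest on those lower in tumors 2 and 3, with medians of 0.80 and 0.34, and 0.77 on the first group. Of the 11 members whose tumors overlapped OE normal lung, 10 lay on the last group. After subtraction of each library's chromosome medians, an analysis chosen after the data were seen, 64 of 77 members were higher than OE normal lung (18% of all genes) and 72 higher than wild-type lung (20.7%), with medians of 0.65 and 0.87. With tumor 1 as the only tumor, so that its spread was assumed to be that of the normal groups, 29 and 53 members were higher (14% and 16.3% of all genes), with medians of 0.46 and 0.64. Without tumor 1 there were 58 and 65 (26.7% and 28.4% of all genes), in a fit whose only tumors were the nearly alike tumors 2 and 3.

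Counts of calls rested on few libraries. Against OE normal lung, where 39 were called with all 7, there were 11 without tumor 2 (7.39% of all genes), 11 without tumor 3 (7.91%), 7 without OE normal 1 (5.79%), 9 without OE normal 2 (5.19%) and 16 without either wild-type lung (8.65%). Against wild-type lung, where 56 were called, there were 33 without tumor 2 (8.54% of all genes), 30 without tumor 3 (9.03%), 46 without either OE normal lung (11.5%), 14 without wild-type 1 (5.66%) and 9 without wild-type 2 (4.25%). A fit of only the groups compared gave 15 and 46 (8.64% and 11.5% of all genes). Without the expression minimum 20 and 41 of 79 members were higher (9.21% and 10.3% of all genes), and 1 was lower than OE normal lung (21.5% of all genes), the paralog Rpl39l. With the replicate number as a block 5 members were higher than OE normal lung, a share of 6.49% beside 5.79% of all genes, and 15 higher than wild-type lung (6.44% of all genes). Rpl32, Rps2 and Rpl7a were called against OE normal lung with any single library left out, and Rpl32, Rps2, Rpl12 and Rpl3 against wild-type lung. Rps7 lost its call against wild-type lung in 2 of these fits. The members' median stayed between 0.50 and 0.67 and between 0.72 and 0.78.

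Of 18 members mutated in Diamond-Blackfan anemia, 12 were higher than OE normal lung, beside 39 of all 77 members and 13.1% of all genes, and 14 were higher than wild-type lung, beside 56 of 77 and 15%. None of the 18 was called lower, and the medians were 0.58 and 0.79, beside 0.59 and 0.72 over all members. Rps27l, a p53-inducible paralog of Rps27, was at 164, 136 and 156 FPKM in the tumors, 99.4 and 110 in OE normal lung and 100.4 and 116 in wild-type lung. All tumors were above all normal lungs, with a log2 difference of 0.53 (SE 0.14, limma adjusted p = 0.027) from OE normal lung. Rpsa, the small subunit protein that also serves as a laminin receptor, was at 450, 383 and 402, then 349 and 395, then 312 and 283 FPKM, and passed only against wild-type lung (0.47, SE 0.14, limma adjusted p = 0.0459).

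Genes close to the family but outside the rule were read beside it. Rpl22l1, the paralog of Rpl22, was at 184, 307 and 293 FPKM in the tumors, 90.4 and 117 in OE normal lung and 110 and 107 in wild-type lung, and its log2 difference from wild-type lung was 1.23 (SE 0.25, limma adjusted p = 0.012). Rpl22 itself was at 117, 102 and 98.7, then 79.5 and 89.0, then 82.0 and 78.7 FPKM. Rps3a1, a small subunit gene that only its symbol kept outside the rule, was at 1073, 1367 and 1353, then 732 and 871, then 747 and 743 FPKM, and was called higher in the tumors against both normal groups.

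Lists of related genes were read beside the 13.1% of all genes higher and 24.9% lower than OE normal lung, and the 15% and 23.2% against wild-type lung. Of 76 mitochondrial ribosomal protein genes, 19 were higher than OE normal lung and 0 lower, with a median of 0.30, and 20 were higher than wild-type lung. Mrpl32 was at 30.3, 32.1 and 33.2 FPKM in the tumors, 15.3 and 17.2 in OE normal lung and 17.0 and 17.9 in wild-type lung. Of 34 translation factors 12 were higher and 1 lower than OE normal lung (median 0.32), and 15 and 1 against wild-type lung. The lower one in both was Eif1, a factor of start-codon selection, at -0.56 and -0.99 on the log2 scale. Eef1b2, an exchange factor of elongation, was at 193, 266 and 256, then 102 and 124, then 96.2 and 95.01 FPKM. Of 22 other TOP mRNAs 9 were higher and 1 lower than OE normal lung (median 0.42). The lower one was Vim, the intermediate filament of mesenchymal cells, at 222, 98.6 and 122 FPKM in the tumors against 434 and 417 in OE normal lung and 392 and 361 in wild-type lung.

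Among 36 ribosome biogenesis genes 6 were higher and 1 lower than OE normal lung (median 0.24), and 8 and 1 against wild-type lung (median 0.23), numbers of higher genes near the share of all genes in the first comparison. The lower one in both was Sbds, a late 60S maturation factor, at 32.5, 39.2 and 41.2 FPKM in the tumors, 63.2 and 61.3 in OE normal lung and 70.1 and 68.1 in wild-type lung. Of 13 RNA polymerase I genes 2 and 4 were higher and 0 lower, led by Polr1c, at 37.2, 64.4 and 67.2, then 22.3 and 21.955, then 21.0 and 21.9 FPKM. Of 21 mTORC1 and Myc genes 1 was higher and 3 lower than OE normal lung, and 2 and 4 against wild-type lung, with medians of 0.06 and -0.04. The mTORC1 inhibitor Akt1s1 was higher in both, at 1.08 and 0.99 on the log2 scale. Mycn was higher than wild-type lung at 2.00 (SE 0.59, limma adjusted p = 0.0388), at low and uneven levels. It was at 11.2, 4.44 and 2.09 FPKM in the tumors, 1.43 and 0.276 in OE normal lung and 0.395 and 0.557 in wild-type lung. The Myc-network repressors Mnt and Mxd4 were lower in both, Eif4ebp2, an inhibitor of cap-dependent translation, against OE normal lung, and Max and Rheb against wild-type lung. Of 8 genes of the p53 and MDM2 axis 3 and 4 were higher. Among them was Cdkn2a, whose products include the MDM2 inhibitor ARF and which has a single value per library for the whole gene. Cdkn2a was at 34.3, 31.8 and 31.3 FPKM in the tumors, 2.30 and 4.05 in OE normal lung and 2.07 and 3.87 in wild-type lung. The 111 small nucleolar RNA genes, many of them hosted in introns of ribosomal protein genes, had a median of 0 FPKM in every library. Of these, 40 were tested. Their median log2 differences were 1.05 and 0.88, or 0 and -0.02 with tumor 1 as the only tumor. With all tumors the differences were positive in 25 and 24 of the 40. In each comparison 1 of them, Snora15, was lower, and 1 and 2 were higher.

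Summed levels of cell type markers differed between the groups, and not all in the same way. Over 7 endothelial markers the summed level was 66.7 to 87.5 FPKM in the tumors, 921 to 1032 in OE normal lung and 999 to 1098 in wild-type lung, and over 6 B cell markers it was 5.66 to 17.9, 129 to 506 and 37.0 to 72.3, with Pax5 at 0 in at least 1 tumor. Over 6 macrophage markers it was 133 to 261, 191 to 229 and 73.6 to 97.6, so that the tumors overlapped OE normal lung and lay above wild-type lung. Over 8 alveolar type 2 markers it was 12616 to 43520, 12605 to 17311 and 15432 to 19200, with Sftpc listed at 0 in tumors 2 and 3. Without Sftpc the other 7 summed to 7576, 12616 and 12778 in the tumors, 2990.1 and 2028 in OE normal lung and 3286 and 2382 in wild-type lung, so that each tumor was above each normal lung. Cell cycle genes summed to 108 to 124, 88.3 to 106 and 72.1 to 89.9 over 9 genes. In bulk samples fewer cells of a type and less RNA per cell cannot be told apart, and the part of these markers in the ribosomal protein differences was not tested.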

How the data were processed

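RNA from 7 mouse lung libraries was sequenced by the authors, who deposited 1 table of FPKM values per library. Per the submitters' processing notes the tools included TopHat2 and Cufflinks 2.0.0 with genome build mm9; no source used here names the annotation or how reads were assigned among copies. The unit was read as FPKM from these notes and the values. Depth is unknown beyond the relative estimate given above. Of 22474 rows 27 with dates in place of symbols were dropped. limma 3.58.1 in R 4.3.3 (empirical Bayes with trend, two-sided, Benjamini-Hochberg over all genes) was fitted on log2(FPKM + 1) with 3 groups sharing 1 spread, after dropping genes that reached 1 FPKM in fewer than 2 libraries. The pseudocount of 1 understates changes of low genes. On simulated data of 14057 genes the test recovered 0.309% of log2 changes of 0.5, 28.4% of 1 and 84.7% of 2 for tumor against OE normal lung, with 5.14% false calls. Far fewer genes were changed there than the 13.1% called higher and 24.9% called lower in the real comparison. The adjusted threshold was therefore stricter in the simulation, and these recovery rates do not carry over to the members. Copies were found with blastn 2.17.0 against GENCODE transcripts. In each comparison the named genes were the 8 largest and 8 smallest called differences and a fixed set (stalk genes, Rpsa, Rps6, Rpl5, Rpl11, Rpl22, paralogs), with the 5 highest and lowest levels; a few genes that this rule names are not reported here. The members and all lists were chosen with earlier results of these data known. With 3 against 2 libraries an exact permutation test cannot go below p = 0.1.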

Additional observations from a re-analysis of the deposited data

How the results depend on the processing

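The members' median was higher in tumors than in both normal groups in each setting tried, while the number called was unstable. Against OE normal lung 39 members were higher (13.1% of all genes), with a median log2 difference of 0.59. Without an expression minimum 20 were higher (9.21% of all genes) and 1 was lower (21.5%), the paralog Rpl39l. With only the 2 groups compared there were 15 (8.64%). TPM without small RNA genes gave 22 (9.33%) and a median of 0.45, against -0.25 over all genes. TPM gave 10 (7.72%) and a median of 0.36, against -0.33. Quantile normalization gave 14, a share of 18.2% that is below the 24.1% of all genes, with a median of 0.23 against 0.13. Chromosome centring gave 64 (18% of all genes). Like tumor 1 as the only tumor (median 0.46), the centring was chosen after seeing the data. Median-of-ratios scaling gave medians of 0.77 with and without the members in the factors. With single libraries left out the number ran from 7 to 58 and the median from 0.50 to 0.67. Against wild-type lung (56 higher, median 0.72) 27 were called with quantile normalization (median 0.42), the medians were 0.84 with median-of-ratios scaling in both forms, 0.64 with TPM, 0.58 with TPM without small RNA genes, 0.87 with chromosome centring and 0.64 with tumor 1 as the only tumor, and single libraries left out gave 9 to 65. The median of OE normal against wild-type lung was 0.31 with TPM, where that of all genes also rose, to 0.15. With TPM without small RNA genes it was 0.16, against 0.01 over all genes. The 27 members called against wild-type lung with quantile normalization were 35.1%, beside 22.8% of all genes. The causes were not tested.

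Deviations of same-numbered libraries from their group means correlated at -0.03 to 0.03. With so few libraries in a group, such values cannot show whether same-numbered libraries shared an animal or a batch. The labels do not say whether they did. With the replicate block, which leaves tumor 3 without a partner, 5 members were higher than OE normal lung and 15 higher than wild-type lung, and medians were 0.55 and 0.74.

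Some genes changed sign. Against OE normal lung Rplp1 was at -0.22 with TPM, -0.13 with TPM without small RNA genes, -0.37 with quantile normalization and from -0.22 (without tumor 1) to 0.15 (without tumor 2) with 1 library left out. Rpsa was at -0.084 with TPM and -0.12 with quantile normalization, which also gave -0.12 for Rplp0 and -0.028 for Rpl11. Against wild-type lung Rplp1 was at -0.013, -0.068 and -0.53 in the same 3 scalings and from -0.14 to 0.22 with 1 library left out. Between OE normal and wild-type lung Rps27l was at 0.085 with TPM and from -0.15 to 0.057 with 1 library left out, Rplp1 at -0.16 with quantile normalization and Rpl22 from -0.016 to 0.15 with 1 library left out. Over the 23 genes named against OE normal lung, 305 gene and setting pairs kept direction and call, 126 lost the call, 21 gained it and 8 turned.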
